A study of Mus musculus with 9 samples.

Results

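*Mtor*, *Rptor*, *Rheb*, *Tsc1*, *Tsc2*, *Depdc5*, *Nprl2* and *Nprl3* are 8 genes of the mTOR pathway whose human counterparts include well-known epilepsy genes. They were chosen by name, all 8 were among the 18559 protein-coding genes with a count, and each was followed through all of its RefSeq transcript rows in the deposited table, 65 rows in all, first summed per gene and then row by row. The libraries are RIP-seq, in which an antibody pulls a protein down and the RNA that comes with it is sequenced. All 9 came from the cytoplasmic fraction of cortices taken at postnatal day 0 from mice heterozygous for the *Celf2* p.R493H knock-in (KI) allele. CELF2 is an RNA-binding protein. There were 3 CELF2-KI RIPs with a rabbit antibody against CELF2, 3 IgG RIPs with normal rabbit IgG (10 µg of either antibody for 3 hours), and 3 inputs, which were aliquots set aside before the antibody was added. All libraries carry the knock-in allele and no wild-type RIP is among them, so the comparisons describe RNA that came down with CELF2 in these mice and not an effect of the allele. The mice keep a normal *Celf2* allele, the labels list neurons, radial glia, astrocytes, oligodendrocyte precursors, microglia and endothelial cells in the fraction, and in such a mixture fewer cells of a type and less RNA per cell cannot be told apart.

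mTOR is a kinase that, in the complex mTORC1 with its scaffold RAPTOR (*Rptor*), drives protein synthesis and cell growth when nutrients and growth factors are present. The small GTPase RHEB switches mTORC1 on at the lysosome. The TSC1-TSC2 complex turns RHEB off, and the GATOR1 complex, made of DEPDC5, NPRL2 and NPRL3, turns off the Rag GTPases that bring mTORC1 to the lysosome. Loss of either brake, or an overactive *MTOR* or *RHEB*, leaves mTORC1 too active in the developing cortex and is known to cause focal cortical dysplasia, tuberous sclerosis or focal epilepsy.

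Over IgG RIP, 0 of the 8 mRNAs were called higher in the CELF2 pull-down (FDR under 0.01) and 2 were lower, *Mtor* and *Nprl2*, both by less than 2-fold, where 22.9% of all tested genes were higher and 19.2% lower. Over 20 alternative processing choices the number lower ran from 0 to 4. The fall of *Mtor* held in 3 of 9 fits with a library removed. *Nprl2* turned to 0.16 on the log2 scale (FDR 0.811) with curated coding rows only, of which it has 1. Against input 3 were higher (*Rptor*, *Tsc1* and *Nprl3*) and 1 lower (*Nprl2*, a call lost with the replicate numbers as a block), where 26.8% of all genes were higher and 20.1% lower, but *Rptor*, *Tsc1* and *Nprl3* were also higher in IgG RIP than in input, as were *Mtor* and *Depdc5*. The number higher than input ran from 0 to 3 over the same alternatives, and was 0 with count totals as library sizes. Of 85 other genes of the same pathway, 31 were raised over both controls, beside 17.4% of all tested genes. Genes at high levels tended to be higher in CELF2-KI RIP, and the part of level in this count was not tested. The 31 include *Eif4ebp2*, *Sesn3*, *Castor2* and *Irs1*.

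Total estimated counts were 15919600 to 20052716 in CELF2-KI RIP, 17365561 to 28773130 in IgG RIP and 69125700 to 105116427 in input. Rows matched to no gene held 21.1% to 43.5% of the counts in the IgG RIPs, 11.6% to 12.6% in the CELF2-KI RIPs and 9.24% to 9.75% in the inputs. Values per library are CPM, protein-coding counts scaled to library sizes that were adjusted with TMM, whose factors were 0.771 to 0.878, 1.05 to 1.08 and 1.12 to 1.16 for the 3 conditions in the same order as the totals. A gene is called, or said to have risen or fallen, at a Benjamini-Hochberg FDR under 0.01 in edgeR's quasi-likelihood test over the 15267 genes tested. *Celf2* mRNA, which encodes the protein pulled down, had 470, 797 and 647 CPM with the CELF2 antibody, 267, 231 and 199.8 CPM with IgG and 304, 278 and 305 CPM in the inputs. These mRNA values do not measure how much of the protein was recovered. Summed markers of cortical excitatory neurons lay at 1688 to 2290 CPM in the CELF2-KI RIPs, 906 to 1058 CPM in the IgG RIPs and 987 to 1152 CPM in the inputs, those of radial glia at 137 to 226, 344 to 418 and 504 to 552 CPM, and those of erythroid cells at 92.7 to 94.96, 366 to 584 and 877 to 1135 CPM. All 8 neuron markers, all 6 radial glia markers and all 5 erythroid markers were detected. The markers of a list did not all follow its sum, as examples named after their values were seen show. In the same order of conditions, *Vim* averaged 27.2, 121 and 176 CPM, but *Pax6* 14.8, 13.2 and 14.6 CPM. *Slc17a7* averaged 565, 122 and 200 CPM, but *Neurod6* 60.5, 66.5 and 94.0 CPM. The part of the differences between the sums in the results was not tested.

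*Mtor*, which encodes the kinase (chr4:148448582-148557685 on GRCm38.p6), had 246, 179 and 233 CPM in the CELF2-KI RIPs 1, 2 and 3, 376, 300 and 311 CPM in the IgG RIPs, and 191, 162 and 189 CPM in the inputs. Every IgG RIP library lay above all 6 others, while CELF2-KI RIP and input overlapped. Its log2 fold change was -0.58 against IgG RIP (SE 0.15, FDR 0.00626), 0.28 against input (95% interval -0.04 to 0.60, FDR 0.117) and 0.86 for IgG RIP against input (FDR 0.0015). The fall below IgG RIP was close to the threshold and was called in 3 of 9 fits with a library removed, with FDRs up to 0.0247. It was lost without CELF2-KI RIP 2 or 3, IgG RIP 1 or 2, and input 1 or 3.

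*Rptor* (chr11:119602905-119899591), the scaffold that presents substrates to the kinase, had 220, 183 and 211 CPM in the CELF2-KI RIPs, 277, 248 and 253 CPM in the IgG RIPs, and 135, 126 and 132 CPM in the inputs. The 3 conditions did not overlap, with IgG RIP highest and input lowest. *Rptor* rose by 0.64 on the log2 scale in CELF2-KI RIP over input (SE 0.10, FDR 0.000416) and by 0.99 in IgG RIP over input (FDR 0.000193). Its log2 fold change against IgG RIP was -0.34 (SE 0.10, FDR 0.0168), which did not pass the threshold. It passed with protein-coding totals as library sizes (-0.71, FDR 0.000733), upper quartile factors (-0.61, FDR 0.000749) and DESeq2 size factors in edgeR (-0.41, FDR 0.00848). It did not pass with totals of all rows (-0.20, FDR 0.371), and passed in 0 of 9 fits with a library removed. The difference from input lost its call without input 2, at an FDR of 0.0112.

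*Rheb* (chr5:24802823-24842361), the GTPase that activates mTORC1, has a single row. It had 39.6, 31.0 and 33.5 CPM in the CELF2-KI RIPs, 27.0, 28.0 and 30.0 CPM in the IgG RIPs, and 38.4, 39.8 and 33.9 CPM in the inputs. Each CELF2-KI RIP exceeded each IgG RIP, and the IgG RIPs lay below the inputs, the opposite order to *Mtor* and *Rptor*. None of the differences passed the test. The log2 fold changes were 0.29 against IgG RIP (95% interval -0.01 to 0.59, FDR 0.0939), -0.11 against input (95% interval -0.41 to 0.19, FDR 0.508) and -0.40 for IgG RIP against input (FDR 0.038).

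*Tsc1* (chr2:28640993-28691172), which encodes hamartin, the subunit that stabilises TSC2, had 115, 117 and 144 CPM in the CELF2-KI RIPs, 142, 127 and 120 CPM in the IgG RIPs, and 69.2, 70.8 and 75.4 CPM in the inputs. Both kinds of pull-down lay above every input library and overlapped with each other. *Tsc1* rose over input by 0.80 on the log2 scale in CELF2-KI RIP (SE 0.12, FDR 0.00025) and by 0.86 in IgG RIP (SE 0.12, FDR 0.000621). The log2 fold change between the pull-downs was -0.05 (95% interval -0.32 to 0.21, FDR 0.734). Under the main settings this interval leaves out a 2-fold difference in either direction. Over the 20 alternatives the value ranged from -1.27 to 0.094, with FDRs of 0.0155 or more, so a 2-fold fall is not left out under every setting. With curated coding rows only the value of CELF2-KI RIP against input turned to -0.24 (SE 0.45, FDR 0.708), and with library sizes from protein-coding totals or totals of all rows it was 0.34 (FDR 0.04) and 0.47 (FDR 0.0312).

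*Tsc2* (chr17:24595816-24632676), which encodes tuberin, the subunit that inactivates RHEB, had 214, 148 and 190 CPM in the CELF2-KI RIPs, 274, 315 and 210 CPM in the IgG RIPs, and 221, 193 and 230 CPM in the inputs. Its ranges overlapped in every comparison, and it was not called in any. The log2 fold changes were -0.53 against IgG RIP (SE 0.17, FDR 0.0242), -0.22 against input (95% interval -0.61 to 0.16, FDR 0.289) and 0.31 for IgG RIP against input (FDR 0.177). Without IgG RIP 3, which was the lowest of its condition, the value against IgG RIP was -0.68 at an FDR of 0.00458. It also passed with protein-coding totals as library sizes (-0.89, FDR 0.00305) and upper quartile factors (-0.80, FDR 0.00338), but not with totals of all rows (-0.35, FDR 0.154).

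*Depdc5* (chr5:32863646-32994233), a GATOR1 subunit and among the genes most often altered in familial focal epilepsy, had 66.9, 55.4 and 76.3 CPM in the CELF2-KI RIPs, 90.0, 82.0 and 64.3 CPM in the IgG RIPs, and 48.1, 46.3 and 52.5 CPM in the inputs. All pull-down libraries lay above all inputs, and the pull-downs overlapped. *Depdc5* rose in IgG RIP over input by 0.69 on the log2 scale (SE 0.16, FDR 0.0069). Its log2 fold change was 0.44 in CELF2-KI RIP against input (FDR 0.0341) and -0.25 against IgG RIP (95% interval -0.60 to 0.10, FDR 0.205), and neither passed. The IgG RIP call held in 4 of 9 such fits and was lost without IgG RIP 1 or 2 or any 1 of the inputs.

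*Nprl2* (chr9:107542177-107545706), which encodes another GATOR1 subunit, had 12.9, 11.7 and 11.2 CPM in the CELF2-KI RIPs, 20.9, 18.4 and 17.5 CPM in the IgG RIPs, and 17.1, 15.9 and 18.8 CPM in the inputs. All CELF2-KI RIP libraries lay below all 6 controls, and the controls overlapped. It was the only member called lower than both controls. *Nprl2* fell by 0.67 on the log2 scale against IgG RIP (SE 0.14, FDR 0.00263) and by 0.53 against input (SE 0.14, FDR 0.00777), and its log2 fold change in IgG RIP against input was 0.14 (95% interval -0.17 to 0.44, FDR 0.459). With same-numbered CELF2-KI RIP and input libraries paired by a replicate block, the log2 fold change against input was -0.54 at an FDR of 0.0136, so that call was lost. Leaving out 1 library kept the fall below IgG RIP in 8 of 9 fits, with the exception of CELF2-KI RIP 3 (FDR 0.013), and the fall below input in 4 of 9. With curated coding rows only, which leave out the predicted transcripts, its log2 fold change turned to 0.16 over IgG RIP (SE 0.47, FDR 0.811) and was -0.69 over input (FDR 0.272).

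*Nprl3* (chr11:32231963-32267707), which encodes the remaining GATOR1 subunit, had 32.1, 42.0 and 33.02 CPM in the CELF2-KI RIPs, 30.3, 28.1 and 30.6 CPM in the IgG RIPs, and 18.1, 18.1 and 20.4 CPM in the inputs. The 3 conditions did not overlap, with CELF2-KI RIP highest and input lowest, although CELF2-KI RIP 1 exceeded the top IgG RIP library by little. *Nprl3* rose over input by 0.92 on the log2 scale in CELF2-KI RIP (SE 0.14, FDR 0.000294) and by 0.66 in IgG RIP (SE 0.14, FDR 0.00519). Its log2 fold change against IgG RIP was 0.27 (95% interval -0.05 to 0.58, FDR 0.138) over all of its rows. The rise in IgG RIP held in 4 of the 9 fits without 1 library, and was lost without IgG RIP 1 or 2 or any 1 of the inputs.

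**Figure D1:**
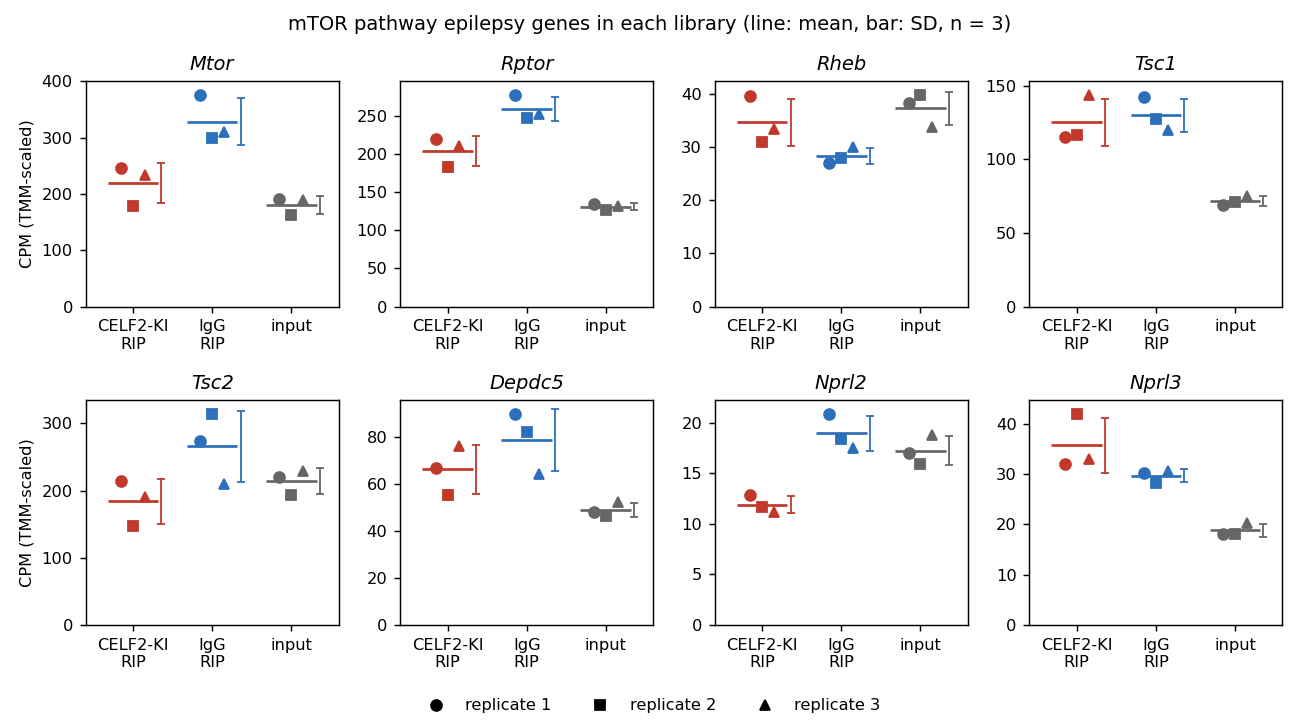
TMM-scaled CPM (linear axis from 0) of each gene in the 9 libraries, with the symbol giving the replicate number, the horizontal line the mean and the bar beside it the SD of 3 libraries. IgG RIP is highest for *Mtor* and *Rptor*, both pull-downs lie above input for *Tsc1*, *Depdc5* and *Nprl3*, and *Nprl2* is lowest in CELF2-KI RIP.

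Counted together against IgG RIP, 0 of the 8 genes were higher and 2 lower, where 22.9% of all tested genes were higher and 19.2% lower. With p under 0.05 and no adjustment edgeR gave 0 higher and 4 lower (*Mtor*, *Rptor*, *Tsc2* and *Nprl2*), and DESeq2 called 0 higher and 4 lower at its own FDR under 0.01. Of all tested genes, 13.4% rose and 13.6% fell by at least 2-fold, against 0 of the 8 in either direction, also with DESeq2. With totals of all rows as library sizes, or with only these 2 conditions in the fit, 0 of the 8 were lower, where 12.5% and 14.2% of all genes were. The median log2 fold change of the 8 was -0.30, beside -0.06 over all tested genes. A scaling to total protein-coding counts moved the median of all genes to -0.42, but the place of each member among all genes moved little. Over the 5 scalings tried *Mtor* stayed between the percentiles 31.1 and 31.4, *Nprl2* between 28.2 and 28.3, and the highest member, *Rheb*, between 61.9 and 62.4. Genes at high levels tended to be higher in CELF2-KI RIP. In the 10% of tested genes with the highest mean CPM, which hold *Mtor*, *Rptor* and *Tsc2*, the median log2 fold change over IgG RIP was 0.61, and all 3 members lay below 0.

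Against input, 3 of the 8 were higher and 1 lower, where 26.8% of all tested genes were higher and 20.1% lower, and a rise or fall of at least 2-fold was called for 14.6% and 15.5% of all genes and for 0 of the 8. DESeq2 likewise called 3 higher and 1 lower and 0 at 2-fold. With edgeR p values left unadjusted (under 0.05) the counts were 4 and 1. The median log2 fold change of the 8 was 0.36, beside 0.19 over all tested genes. With the same-numbered libraries paired by a replicate block 0 were lower. When library sizes were taken as the totals of the protein-coding counts or of all rows, 0 of the 8 were higher, where 12.4% and 11.9% of all genes were.

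In IgG RIP against input, 5 of the 8 were higher and 0 lower, where 12% of all tested genes were higher and 11.3% lower. At least 2-fold were 6.79% and 5% of all genes, and 0 of the 8 in either direction by edgeR or DESeq2, although *Rptor*, at 1.98-fold, lay just under that size. *Rheb* was lower at an unadjusted p under 0.05 and in DESeq2, the only member to be so. The median log2 fold change was 0.67, beside -0.00 over all tested genes. With totals of all rows as library sizes 0 were higher and 1 was lower, where 4.03% and 21.9% of all genes were. The 3 comparisons share libraries, so the 2 comparisons of a pull-down with input are not independent of each other. Summed nuclear-retained noncoding RNAs (*Malat1*, *Neat1*, *Meg3*, *Kcnq1ot1* and *Miat*) lay at 7558 to 12104 CPM in the IgG RIPs, 7933 to 11311 CPM in the CELF2-KI RIPs and 4778 to 5631 CPM in the inputs, higher in both pull-downs in every library. Their part in the rise of the 5 members was not tested.

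**Figure D2:**
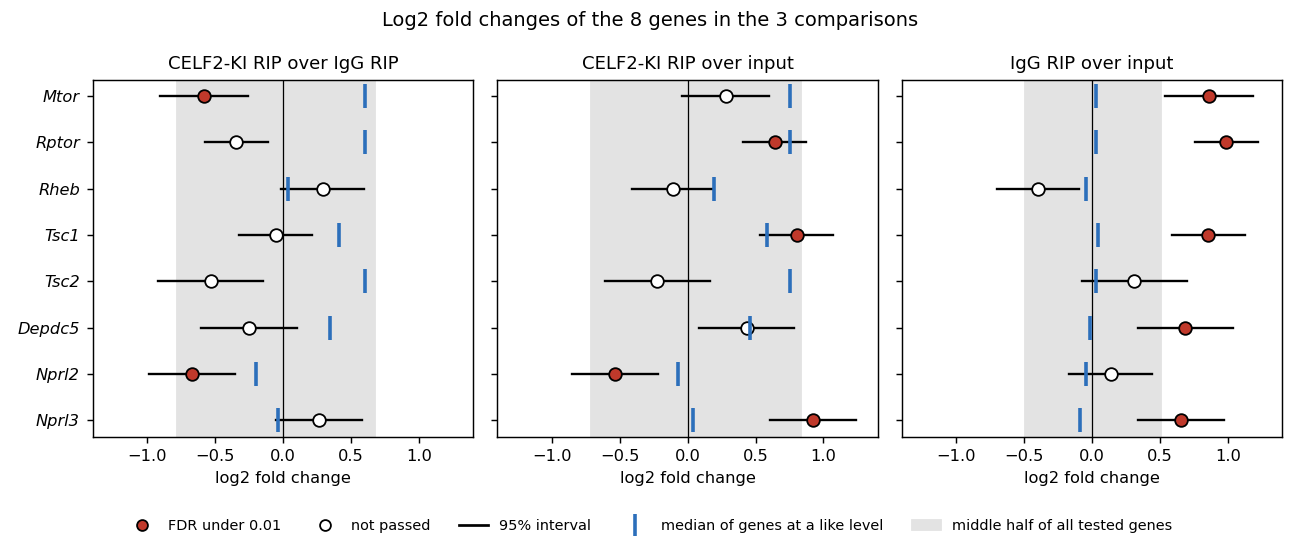
Log2 fold change (x axis) of each gene in the 3 comparisons, with its 95% interval from edgeR, filled where the FDR is under 0.01. The grey band spans the middle of all tested genes, from the lower to the upper quartile, and the blue tick marks the median of genes in the same of 10 groups by mean CPM. In IgG RIP over input 5 genes are filled on the right, and over IgG RIP *Mtor* and *Nprl2* are filled on the left.

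Raised over IgG RIP and also over input in CELF2-KI RIP at an FDR under 0.01 were 0 of the 8 genes, beside 17.4% of all tested genes and 31 of the 85 other pathway genes tested. With the 2-fold criterion added, these were 0 of the 8, 7.58% of all tested genes and 14 of the 85. Lower than both controls were *Nprl2* among the 8, 13.4% of all tested genes and 13 of the 85. With the replicate block the call of *Nprl2* against input was lost.

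The other pathway genes came from 9 lists by role, with 86 genes besides the 8, of which 85 were tested and *Kics2* had no matched row. Against IgG RIP 35 of the 85 rose and 14 fell (41.2% and 16.5%), where 22.9% and 19.2% of all tested genes did. Their median log2 fold change was 0.49, also with *Rps6kb2*, which had no counts in CELF2-KI RIP, at its bound. Against input 42 rose and 19 fell (49.4% and 22.4%), with a median of 0.59, beside 26.8% and 20.1% of all tested genes. Many of the 85 have high levels, where genes tended to be higher in CELF2-KI RIP. In groups 8, 9 and 10 of the 10 groups of tested genes by mean CPM, the medians over IgG RIP were 0.34, 0.41 and 0.61. Over input they were 0.46, 0.58 and 0.76. The part of level in the counts of these lists was not tested. In IgG RIP against input 6 rose and 5 fell (7.06% and 5.88%), with a median of 0.00, beside 12% and 11.3% of all tested genes. The lists that hold the 8 genes had few risers over IgG RIP, but they count the 8 themselves and so in part repeat their result. Of 12 subunits of mTORC1 and mTORC2, 0 rose and 2 fell (*Mtor* and *Telo2*, a chaperone cofactor of the complex, at -0.93), while *Prr5*, an mTORC2 subunit, had the largest value of the list at 1.60 (FDR 0.0137) and rose by 1.92 on the log2 scale over input. Of 5 genes of the TSC complex and Rheb, 0 rose and 1 fell, *Tbc1d7*, the third subunit of the complex, at -1.09, and the highest was the RHEB relative *Rhebl1* at 0.36 (FDR 0.233). Of the 3 GATOR1 genes 0 rose and 1 fell.

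Upstream of the brakes more genes rose. Among 25 upstream kinases and phosphatases 14 rose over IgG RIP and 3 fell, where 22.9% and 19.2% of all tested genes did. *Ddit4*, a stress-induced inhibitor of mTORC1, rose by 1.62 on the log2 scale, the AMPK subunits *Prkab2* and *Prkaa2* by 1.39 and 1.34, and the insulin receptor substrate *Irs1* by 1.36. *Pik3r2*, a regulatory subunit of PI3-kinase, fell by 1.11.

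Among the nutrient-sensing genes on either side of GATOR1, 3 of 8 amino acid sensors rose and 0 fell. For this and the following lists, 22.9% of all tested genes rose over IgG RIP and 19.2% fell. *Castor2*, of the CASTOR family, and *Sesn3*, a Sestrin, each rose by 1.55 on the log2 scale over IgG RIP. The lowest of the list was *Lars*, the leucyl-tRNA synthetase, at -0.46 (FDR 0.0132). Of 12 genes of the Rag GTPases, Ragulator and folliculin 6 rose and 2 fell. *Rraga* and *Rragd*, which encode Rag GTPases, rose by 1.43 and 1.24, and the Ragulator subunits *Lamtor2* and *Lamtor4* fell by 1.96 and 1.57. Of 5 GATOR2 genes 3 rose and 1 fell, with *Seh1l* at 0.84 and *Sec13* at -1.20 at the ends, and of 3 tested KICSTOR genes *Itfg2* rose by 1.10 and *Kptn* fell by 1.24.

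Of 20 downstream effectors 8 rose and 5 fell over IgG RIP, where 22.9% and 19.2% of all tested genes did. *Eif4ebp2*, the translation repressor that mTORC1 inactivates, had 397, 611 and 516 CPM in the CELF2-KI RIPs, 156, 152 and 188 CPM in the IgG RIPs and 157, 151 and 180 CPM in the inputs, a rise of 1.62 on the log2 scale over IgG RIP and 1.64 over input. *Foxk2*, a transcription factor, and *Grb10*, an adaptor that mTORC1 phosphorylates, rose by 1.61 and 1.53 over IgG RIP, and *Pdcd4*, a translation inhibitor, fell by 1.12. *Rps6kb2*, an S6 kinase, had 0 counts in every CELF2-KI RIP library, 11 to 62 in IgG RIP and 92 to 145 in input. With the floor at 3 counts per library it was at least 9.69-fold lower than in IgG RIP and at least 7.21-fold lower than in input. The mean of IgG RIP rested on IgG RIP 3, and without it the bound was 5.52-fold.

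**Figure D3:**
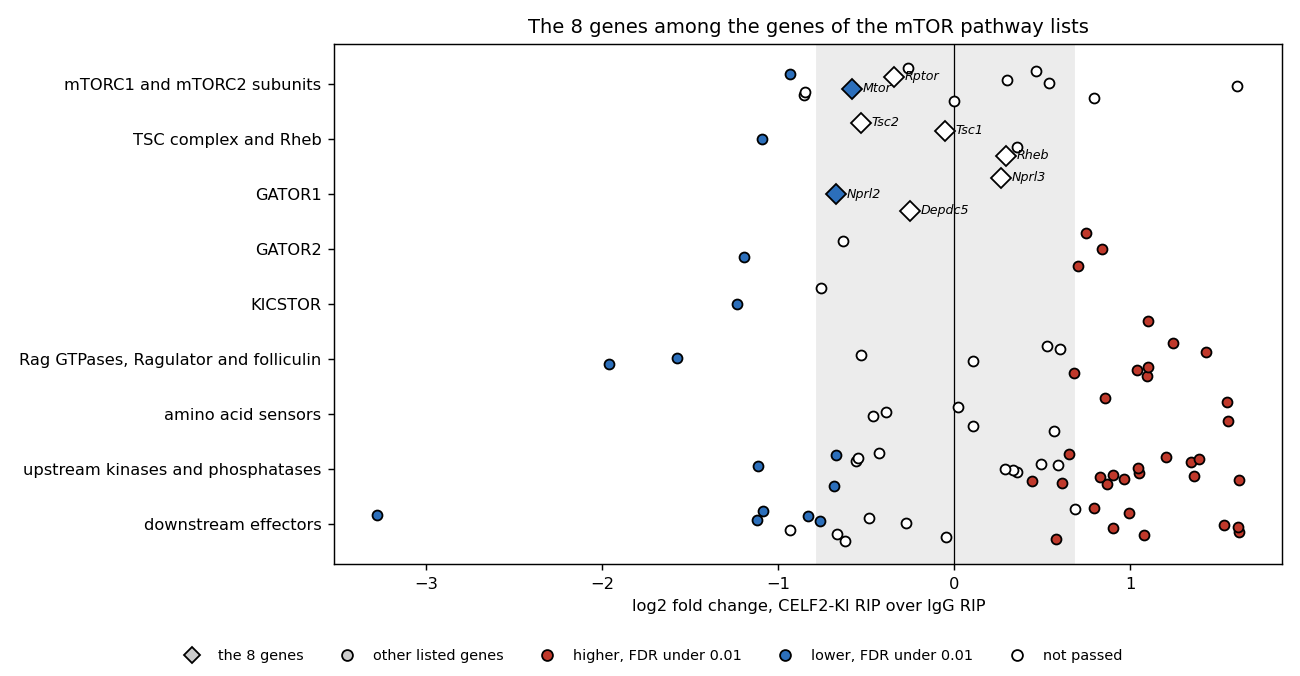
Log2 fold change in CELF2-KI RIP over IgG RIP (x axis) of the genes of 9 pathway lists (rows), with diamonds for the 8 genes, fill for an FDR under 0.01 (red higher, blue lower), and a grey band between the quartiles of all tested genes. *Rps6kb2* is drawn at its bound with an arrow. The diamonds lie between *Nprl2* at -0.67 and *Rheb* at 0.29, while the lists of sensors, Rag GTPases, upstream kinases and effectors reach 1.43 to 1.62.

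The rows of a gene are alternative transcripts, and the split of reads among them is an estimate. The uncertainty of that split is not in the deposited counts. The SEs and FDRs of rows are therefore too small where rows share most of their sequence. Of the 65 rows 42 passed the filter on low values and 23 did not. Against IgG RIP 0 of the 42 rose and 1 fell, where 3.91% of all 39137 tested rows rose and 3.30% fell, and at an unadjusted p under 0.05 the counts were 1 and 10. Against input 0 rose and 0 fell (1.49% and 4.64% of all rows), with 2 and 3 at an unadjusted p under 0.05. In IgG RIP against input 0 rose and 0 fell (0.928% and 1.92% of all rows), with 7 and 4. In edgeR's test of a row against the rest of its gene 0 of 40 rows were called in each comparison, where 0.717%, 0.502% and 0.629% of the 32896 rows tested were called over IgG RIP, over input and in IgG RIP over input. At an unadjusted p under 0.05 those tests gave 5, 3 and 6 rows in either direction. DESeq2 was not run on rows.

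The row that fell was the curated *Tsc1* transcript NM_001289575.1, whose share of the counts of its gene was 9.02%, 17.3% and 7.34% in the CELF2-KI RIPs, 28.5%, 30.4% and 41.2% in the IgG RIPs and 17.2%, 14.3% and 11.9% in the inputs. IgG RIP stood above both others, which overlapped. The row fell by 1.89 on the log2 scale against IgG RIP (SE 0.30, FDR 0.0051), and in IgG RIP against input its log2 fold change was 1.80 (FDR 0.0105). Both FDRs leave out the uncertainty of the split. The remaining rows of *Tsc1*, summed, averaged 112 CPM in the CELF2-KI RIPs, 87.0 CPM in the IgG RIPs and 61.5 CPM in the inputs. Their ratio of means between the pull-downs, not tested, was 0.36 on the log2 scale. As the row was picked for its fall, leaving it out raises that ratio by construction. Against the rest of its gene the row was not called over IgG RIP (log2 difference -1.71, FDR 0.942).

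Another 4 rows had an uneven share and were picked after their values were seen, so no test is drawn from them. Where a row with a high share in IgG RIP is left out, the ratio over IgG RIP rises by construction. The *Rptor* row NM_001306081.1 held 34.6%, 15.4% and 22.3% of the gene in the IgG RIPs, 9.90%, 18.2% and 2.30% in the CELF2-KI RIPs and 2.66%, 2.64% and 2.93% in the inputs. All pull-down shares but that of CELF2-KI RIP 3 were well above input. Without that row *Rptor* averaged 184 CPM in the CELF2-KI RIPs, 196 CPM in the IgG RIPs and 127 CPM in the inputs, a log2 ratio of -0.09 between the pull-downs in place of -0.34.

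The only noncoding row of *Tsc2*, the predicted transcript XR_001782062.1, held 17.6%, 21.9% and 28.4% of the gene in the IgG RIPs, 3.48%, 6.59% and 0% in the CELF2-KI RIPs and 1.77%, 1.12% and 3.35% in the inputs. Every IgG RIP library stood far above the others. With that row left out *Tsc2* averaged 178, 207 and 210 CPM in the CELF2-KI RIPs, IgG RIP and input, and the log2 ratio between the pull-downs was -0.22 in place of -0.53.

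The noncoding row of *Nprl3*, NR_104306.1, held 46.5%, 51.9% and 52.0% of the gene in the IgG RIPs, 26.7%, 37.2% and 31.2% in the CELF2-KI RIPs and 25.7%, 31.1% and 19.5% in the inputs. IgG RIP again stood above the rest. From its coding rows alone *Nprl3* had 23.5, 26.4 and 22.8 CPM in the CELF2-KI RIPs, 16.2, 13.6 and 14.7 CPM in the IgG RIPs and 13.4, 12.5 and 16.4 CPM in the inputs. The log2 fold change of *Nprl3* over IgG RIP was 0.71 in a fit on the coding rows of all genes, an alternative chosen after these shares were seen, and 0.55 in a fit on curated coding rows, and both leave this row out. As the row was picked for its high share in IgG RIP, leaving it out raises that ratio by construction, and no test is drawn from it. Its log2 fold change in IgG RIP against input was 0.08 and 0.20 in the same fits, in place of 0.66.

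The curated *Nprl2* row NM_018879.2 held 80.1%, 61.6% and 92.5% of the gene in the CELF2-KI RIPs, 11.3%, 57.0% and 55.9% in the IgG RIPs and 89.8%, 79.8% and 85.6% in the inputs. Every IgG RIP share was below all others. The log2 fold change of this row over IgG RIP was 0.08 (SE 0.54), beside -0.67 for the sum of all rows of the gene. As the row was picked for its low share in IgG RIP, its ratio lies above that of the gene by construction. It is the only curated row of *Nprl2*, so the fit on curated coding rows rests on the same row.

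Over all protein-coding genes, noncoding rows held 2.81% to 3.46% of the counts in the IgG RIPs, 2.09% to 2.23% in the CELF2-KI RIPs and 1.99% to 2.08% in the inputs. With coding rows only, *Mtor*, which has no noncoding row, stayed lower than IgG RIP (-0.58, FDR 0.00698), as did *Nprl2* (-0.57, FDR 0.00859).

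**Figure D4:**
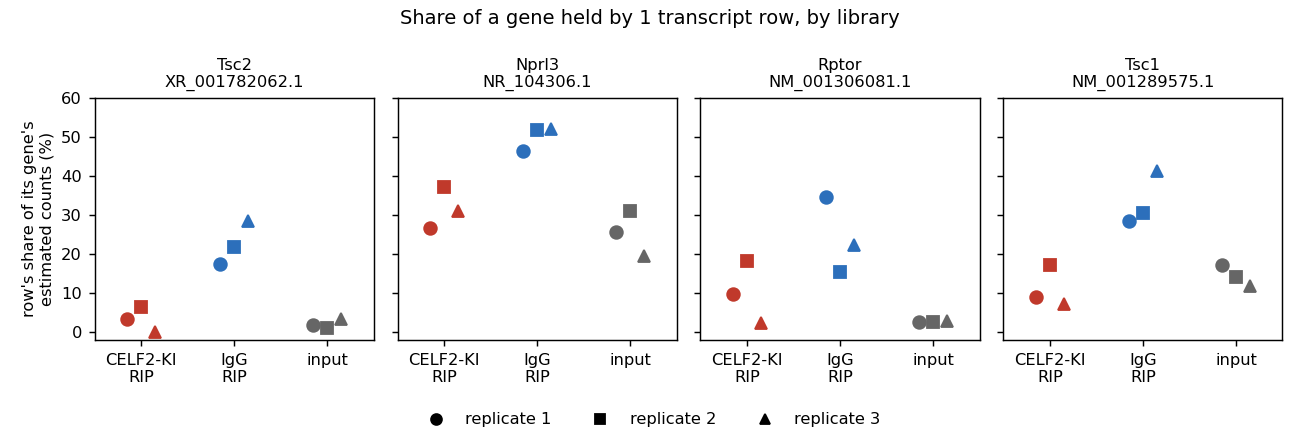
Share of the estimated counts of its gene (%, y axis) held by 1 transcript row of *Tsc2*, *Nprl3*, *Rptor* and *Tsc1* in each library, by condition, with the symbol giving the replicate number. IgG RIP is above input in every panel and above CELF2-KI RIP in the panels of *Tsc2*, *Nprl3* and *Tsc1*.

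Among themselves the 8 genes followed a shared order over the 9 libraries in part. The correlation of log2 CPM, a description of 3 conditions that share no more than 9 points, was 0.91 for *Mtor* and *Rptor*, 0.93 for *Rptor* and *Tsc1*, 0.91 for *Rptor* and *Depdc5*, and 0.76 for *Tsc2* and *Nprl2*. *Rheb* ran against each of the others, with values from -0.72 with *Mtor* to -0.37 with *Nprl2*. The subunits of a complex did not always go together. *Tsc1* and *Tsc2* were at 0.14 and *Nprl2* and *Nprl3* at -0.51.

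Among 9722 genes with a mean of at least 10 CPM, the gene most like *Mtor* over the 9 libraries was *Ube2o* (Pearson r 0.985), and the most like *Rptor* was *Gcn1* (0.996). *Rheb* was nearest to *Mcfd2* (0.977), *Tsc2* to *Gba2* (0.965), *Depdc5* to *Cux2* (0.992), *Nprl2* to *Nr1d1* (0.988) and *Nprl3* to *Grk5* (0.992). With 3 conditions many genes share such an order.

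**Figure D5:**
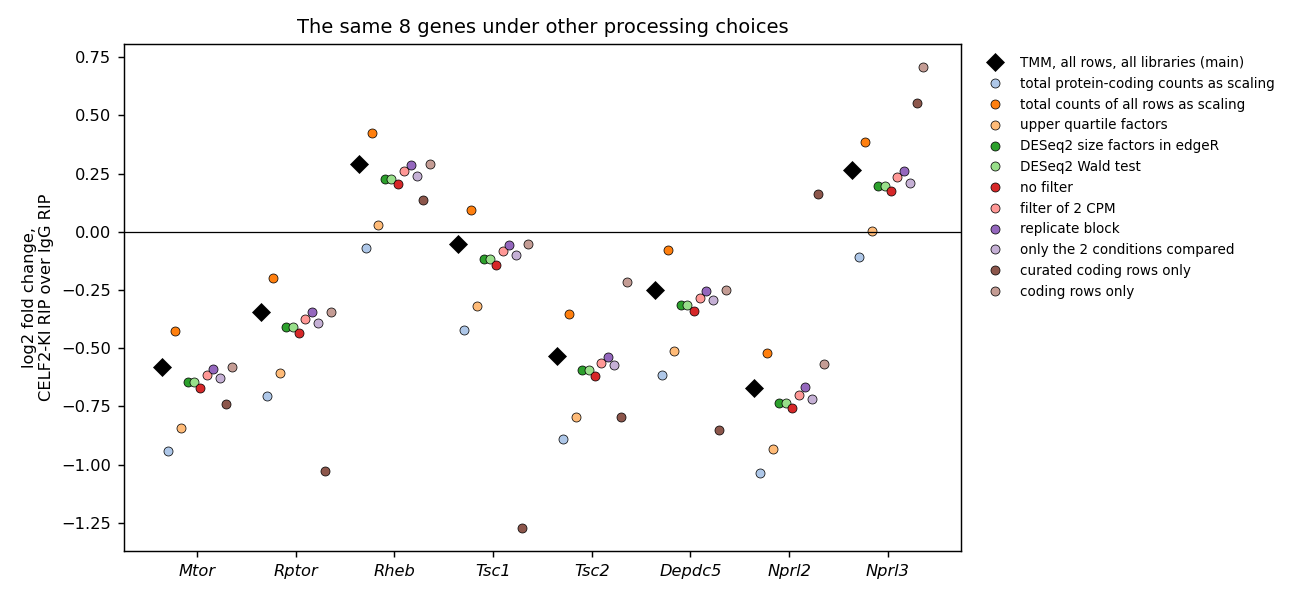
Log2 fold change in CELF2-KI RIP over IgG RIP (y axis) of each gene under the main settings (black diamond) and 11 alternatives (circles). *Mtor*, *Rptor*, *Tsc2* and *Depdc5* lie below 0 under all of them, *Nprl2* under all but curated coding rows, and *Rheb*, *Tsc1* and *Nprl3* lie on both sides of 0.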

How the data were processed

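Libraries were made by RIP-seq as described in the report. The authors removed rRNA reads (Ribodetector 0.3.1) after trimming (fastp 0.23.4) and ran Kallisto 0.51.1, and they deposited estimated counts per RefSeq transcript row, not scaled for depth or length (the transcriptome is named as Ensembl in the methods; build mm10). Row accessions, stripped of their version, were looked up in a RefSeq table of GRCm38.p6, which also gave the coordinates (20662 of 107384 rows had no match). Estimated counts were summed per protein-coding gene and rounded. The filter was 0.5 CPM or more in 3 or more libraries, and tests were run in R 4.3.3 with edgeR 4.0.16 (quasi-likelihood test, TMM, a mean per condition over all 9 libraries, no other term), rows against the rest of their gene with diffSpliceDGE. DESeq2 1.42.0, other scalings, filters and row sets, a replicate block and leaving out each library were alternatives. The steps were tested on simulated counts for CELF2-KI RIP against IgG RIP. At an FDR under 0.01, 13 of 50 simulated 2-fold rises and 11 of 50 2-fold falls were called. At 4-fold these were 45 of 50 and 44 of 50, and 1 of 14866 unchanged genes was called. A gene that was not called can therefore still differ by 2-fold. Figures were drawn with matplotlib 3.10.9.

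The 8 genes, the lists and the tests were chosen with earlier results of these data known. Named were the 8 genes, of the lists the 20 genes with the largest change over IgG RIP that passed the FDR and 2-fold in either CELF2-KI RIP comparison (49 did), the extremes of each list, the gene most like each member and *Celf2*. For any other gene the text says that its values were seen first. A few results that this rule names are not reported here.

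The labels call the replicates biological. Deviations of same-numbered libraries from their condition means, across 11534 genes (genes are not independent replicates), correlated at 0.185, 0.122 and 0.213 between CELF2-KI RIP and input, all over 0.1, so the numbers were taken to pair those libraries. Libraries with different numbers were not correlated in this way, so the pairing is an assumption. The main fit did not use this pairing. The replicate block of the alternative fit covered all 9 libraries, the IgG RIPs included. The common biological coefficient of variation was 0.221. Reads carry no molecular identifiers, so errors, intervals and floors reflect counting and the spread among libraries only. Overlapping annotated genes (*Angptl7* in *Mtor*, *Rptoros* in *Rptor*, *Pkd1* at *Tsc2*, *Cyb561d2* at *Nprl2*, *Mpg* at *Nprl3*) could share reads where exons overlap, and no strand setting for counting is given in the sources used here. Transcript and protein sequences and transcript lengths were not used here, so levels were not compared between genes.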

Additional observations from a re-analysis of the deposited data

How the results depend on the processing

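Of the 8 genes, the number lower than IgG RIP was 4 with total protein-coding counts as library size, with upper quartile factors and with DESeq2, where 29.3%, 26.7% and 24.6% of all tested genes were lower in place of 19.2%. It was 1 with curated coding rows (NM_ accessions) only (14.5% of all genes), and 0 with totals of all rows or with only the 2 conditions compared in the fit (12.5% and 14.2%), where *Mtor* was at -0.63 (FDR 0.0158) and *Nprl2* at -0.72 (FDR 0.0112). Leaving out 1 library gave 0 to 3. The number higher than IgG RIP was 1 (*Nprl3*) with coding rows only, where 22.4% of all genes were, and 0 in the other 19 alternatives. Against input, the number higher was 0 with either total (12.4% and 11.9% of all genes) and 1 with curated coding rows (15.4%), and the number lower was 0 with the replicate block, coding rows or curated coding rows (18.8%, 19.2% and 15.6%), and 0 or 1 without 1 library. In IgG RIP against input, the number higher was 0 with totals of all rows, 3 with the replicate block, 1 with curated coding rows (4.03%, 9.59% and 4.70% of all genes) and 2 to 5 without 1 library, and the number lower was 1 with totals of all rows and with DESeq2 (21.9% and 19.1%). Same-numbered IgG RIP libraries correlated at -0.070, 0.038 and -0.011 with CELF2-KI RIP and at 0.087, 0.064 and 0.008 with input, so the numbers were not taken to pair them, and beside the call of *Nprl2* against input and those of *Depdc5* and *Nprl3* in IgG RIP the replicate block changed no other. Rows called higher in IgG RIP than in input numbered 1 with a 2 CPM filter and 3 with curated coding rows.

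The median log2 fold change of the 8 over IgG RIP was -0.66 with protein-coding totals and -0.77 with curated coding rows. Over input it was -0.095 with protein-coding totals, 0.028 with totals of all rows, 0.12 with upper quartile factors, 0.14 with the 2 conditions alone and 0.057 with curated coding rows. In IgG RIP over input it was 0.19 with totals of all rows and 0.38 with coding rows.

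Single genes turned as follows. With protein-coding totals *Rheb* (-0.069) and *Nprl3* (-0.11) lay below 0 over IgG RIP, and *Mtor* (-0.17) and *Depdc5* (-0.020) below 0 over input. With totals of all rows *Tsc1* was at 0.094 over IgG RIP, *Mtor* at -0.049 over input, and *Tsc2* (-0.19) and *Nprl2* (-0.35) below 0 in IgG RIP over input. With curated coding rows *Nprl2* was at 0.16 over IgG RIP and -0.85 in IgG RIP over input, and over input *Tsc1* was at -0.24, *Tsc2* at 0.28 and *Depdc5* at -0.27. With coding rows *Tsc2* was at -0.016 in IgG RIP over input. Without 1 library *Tsc1* over IgG RIP ranged from -0.16 to 0.012. Apart from the choice of samples or rows that defines each alternative, the cause was not tested.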
